A study of Drosophila melanogaster with 2 samples.

Results

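Topologically associating domains (TADs) of the Drosophila genome were compared in pairs that lie 1 to 5 Mb apart on the same chromosome arm. The pairs were formed from the TADs that the authors segmented on the 5 large chromosome arms (X, 2L, 2R, 3L and 3R), and each pair was classed by the sizes of its members. A long-long pair joins 2 TADs of at least 100 kb, a short-short pair joins 2 TADs of at most 50 kb, and a mixed pair joins 1 of each. This gave 26756 pairs, of which 4978 are long-long, 8502 short-short and 13276 mixed. They were taken from 49970 TAD pairs at 1 to 5 Mb and from 170638 same-arm pairs at any distance. The other 23214 pairs at 1 to 5 Mb hold a TAD of 60 to 90 kb.

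Kc167, an established Drosophila melanogaster cell line, was examined by Hi-C after digestion with DpnII, and no treatment or mutant was included. Hi-C ligates DNA ends that are close together in the fixed nucleus, so that a di-tag in the map records 1 contact within a bin or between 2 bins. The 2 replicates were combined by the authors before deposition into a single map of 10 kb bins on release 5 of the genome. As a result there is no replicate error for any value, no p-value is given, and the spread is the SD over the 5 arms, which share 1 map and are not replicates. Because the TADs were segmented on the same map, the values within an arm describe the map and are not an independent test of the classes.

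TADs are stretches of chromosome whose DNA contacts itself more often than the neighbouring DNA. In Drosophila, long TADs mostly cover regulated or inactive chromatin, whereas short TADs are often found in gene-dense, broadly active regions. Beyond the TAD, chromosomes can show compartments, in which distant domains of the same kind meet more often than domains of different kinds. The comparison made here asks whether that is seen when the only thing known of a TAD is its size.

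There are 1305 TADs on the 5 arms. Of these, 411 are long with a median of 150 kb, 350 are of medium size (60 to 90 kb) and 544 are short with a median of 40 kb. The long TADs cover 72.7 Mb or 61.1% of the arms, and the short TADs cover 20.0 Mb or 16.8%. Within single arms the map holds 29686088 di-tags, and bin totals here count only these. The median total per bin was 4841 di-tags in long TADs and 4830 in short TADs, and on single arms the medians were 4782.5 and 4913.5 on 2L, 4900 and 5007 on 2R, 4730 and 4708 on 3L, 5375 and 5247 on 3R, and 4432 and 4332 on X. Single TADs differed more.

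The raw di-tags were summed first. Long-long pairs held 1124582 di-tags over 1556831 bin pairs, which is 0.722 di-tags per bin pair. Short-short pairs held 122955 over 115015 bin pairs or 1.07 per bin pair, and mixed pairs held 527926 over 858440 bin pairs or 0.615 per bin pair. The classes lie at nearly the same distance, with median separations of 2900 kb for long-long, 2870 kb for short-short and 2895 kb for mixed pairs. Many bin pairs at this distance hold no di-tag, 54.4% of those in long-long, 42.2% in short-short and 58.5% in mixed pairs. The typical pair of long TADs is well covered, with a median of 152 di-tags, against 11 for a short-short pair and 32 for a mixed pair, so that single short-short pairs are the least precise.

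The same sums were then taken for each arm. Long-long pairs held 269647 di-tags on 2L, 141026 on 2R, 203484 on 3L, 293483 on 3R and 216942 on X. Short-short pairs held 23324 di-tags on 2L, 23567 on 2R, 19929 on 3L, 22024 on 3R and 34111 on X. Mixed pairs held 105337 di-tags on 2L, 89411 on 2R, 90060 on 3L, 124314 on 3R and 118804 on X. Per bin pair, the short-short class was the densest and the mixed class the least dense on each of the 5 arms. Short-short pairs had 1.16 di-tags per bin pair on 2L, 1.03 on 2R, 1.08 on 3L, 1.07 on 3R and 1.03 on X, against 0.639, 0.636, 0.561, 0.667 and 0.576 in mixed pairs of the same arms.

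Contact falls with distance, so each class was set against the mean of its arm at the same distance. Summed over the arms, the raw di-tags of long-long pairs were 1.01 times the expected sum (95% Poisson interval 1.0081 to 1.0119). Short-short pairs reached 1.51 times (1.5045 to 1.5215) and mixed pairs 0.862 times (0.860 to 0.865). These intervals cover counting error only.

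On the normalised map, both like classes had on average more contact than the mixed class. The mean observed over expected contact, in which 1 is the arm mean at equal distance, was 1.06 in long-long pairs, 1.40 in short-short pairs and 0.868 in mixed pairs, with SDs over the arms of 0.0184, 0.108 and 0.0289 (n = 5 arms). Long-long pairs had 1.08 on 2L, 1.04 on 2R, 1.05 on 3L, 1.05 on 3R and 1.07 on X. Short-short pairs had 1.36 on 2L, 1.28 on 2R, 1.56 on 3L, 1.36 on 3R and 1.45 on X. Mixed pairs had 0.832 on 2L, 0.892 on 2R, 0.893 on 3L, 0.886 on 3R and 0.845 on X. The class means do not overlap on any arm, although single TAD pairs of the classes do. The lowest short-short value, on 2R, lies above the highest long-long value, on 2L, and every mixed value lies below every long-long value.

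**Figure D1:**
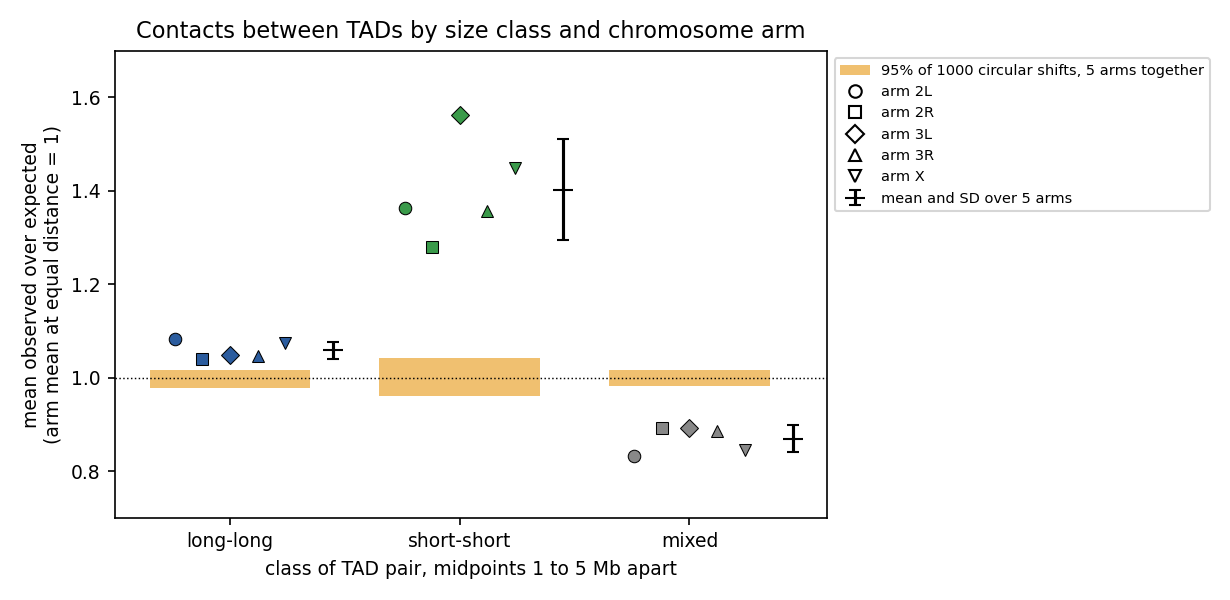
Mean observed over expected contact (vertical axis, arm mean at equal distance = 1) of long-long, short-short and mixed TAD pairs 1 to 5 Mb apart, with 1 symbol per chromosome arm, the mean and SD over the 5 arms in black, and the middle 95% of 1000 circular shifts as a band. Short-short pairs lie highest at 1.28 to 1.56, long-long pairs just above 1 at 1.04 to 1.08, and mixed pairs below 1 at 0.832 to 0.893.

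The size of the preference differed between the classes. Long-long contact was 1.22 ± 0.0623 times mixed contact (SD over 5 arms), from 1.17 on 2R to 1.30 on 2L. Short-short contact was 1.61 ± 0.131 times mixed contact, from 1.43 on 2R to 1.75 on 3L. The geometric mean of both like classes over the mixed class, called the like over unlike ratio, was 1.40 ± 0.0789, with 1.46 on 2L, 1.29 on 2R, 1.43 on 3L, 1.34 on 3R and 1.48 on X. Pairs with a TAD of medium size had a mean of 0.981, between mixed and long-long pairs.

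The position of long-long pairs relative to 1 depends on the normalisation. On the raw counts their mean was 1.00, and after the raw counts were balanced by iterative correction it was 1.01. They stayed above mixed pairs, at 1.15 and 1.14 times the mixed mean. Summed by arm, their raw di-tags were 1.04 times the expected sum on 2L and 1.05 times on X. On 2R, 3L and 3R they lay below it, at 0.966, 0.990 and 0.992 times. The expected value itself is an average in which long-long pairs weigh most among the classes, with 38.1% of all bin pairs between TADs at this distance against 2.82% for short-short and 21.0% for mixed pairs.

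The TADs were next shifted along their own arm, end joined to start, by at least 1 Mb. The classes were then measured again with the TAD sizes and their order around the joined arm kept. A TAD that came to lie across the join was left out. Distances were taken at the shifted positions, so the pairs at 1 to 5 Mb differed somewhat from the measured ones. In the middle 95% of 1000 shifts, long-long pairs had 0.978 to 1.02, short-short pairs 0.961 to 1.04 and mixed pairs 0.982 to 1.02. For the like over unlike ratio this range was 0.984 to 1.01 and the highest shift had 1.02. No shift of the 5 arms together reached the measured value of any of the 3 classes or of the ratio. Arm by arm, the long-long mean was reached by 22 of 1000 shifts on 2R and by 18 on 3R, and by 0 on the other arms, whereas the long-long over mixed ratio was reached by 0 shifts on each arm. The shifts describe this pooled map and are not a test across replicates.

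The map was also balanced using only contacts at 1 to 5 Mb, which brings every bin to the same mean over its bin pairs at that distance. Long-long pairs then had 1.05, short-short pairs 1.32 and mixed pairs 0.857. The like over unlike ratio was 1.37, from 1.29 on 2R to 1.44 on X.

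Single TAD pairs were spread widely around these means. The median over TAD pairs was 0.936 for long-long (quartiles 0.765 and 1.17), 1.27 for short-short (0.884 and 1.76) and 0.818 for mixed pairs (0.649 and 1.04). Over all 49970 TAD pairs at this distance, pairs with a TAD of medium size included, the median was 0.943. A value below 1 was thus usual for a single pair, and the long-long median lay close to that of all pairs and slightly below it. Values above 1 were found in 41.9% of long-long pairs, 68.1% of short-short pairs and 28.2% of mixed pairs. The medians give each TAD pair the same weight, and the mean of long-long pairs weighted in this way was 1.03. The 125 long-long pairs above 2 are 2.51% of the class and hold 6.51% of its di-tags, and the mean over bin pairs was 1.01 without them. In the short-short class 1460 pairs or 17.2% were above 2 and held 25.3% of its di-tags, and its mean was 1.16 without them.

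Observed over expected above 1.5 was found in 14.5% of all TAD pairs at 1 to 5 Mb, the background for the counts that follow. In the short-short class 3101 pairs or 36.5% passed, in the long-long class 465 or 9.34%, and in the mixed class 715 or 5.39%. Values below 1/1.5 were found in 18.5% of all pairs, in 11.9% of long-long, 14.4% of short-short and 27.5% of mixed pairs. Long-long pairs were thus below the background in both directions. Their median of 152 di-tags per pair was the highest of the classes, and how far this narrows their spread was not tested. Short pairs have few di-tags, so the count was repeated on pairs with at least 10 expected di-tags, where the background above 1.5 was 11.1%. Short-short pairs then passed in 32.6% and mixed pairs in 5.35%, and all long-long pairs were included as before with 9.34%. Below 1/1.5 the background was 18.4%, against 11.9% of long-long, 8.44% of short-short and 27.6% of mixed pairs.

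The limits of the classes were examined in the values just inside and just outside them. TADs of 100 kb had 0.991 with long TADs and 0.993 with short TADs, and TADs of 90 kb, just outside the long class, had 1.02 and 1.07. TADs of 50 kb had 0.862 with long TADs and 1.39 with short TADs, and TADs of 60 kb, just outside the short class, had 0.873 and 1.23. Contact with short TADs was thus lower just outside the limit of 50 kb, contact with long TADs was nearly the same on both sides of it, and TADs of 100 kb had nearly equal contact with both classes. At the distance limits, long-long pairs had 1.05 at 0.9 to 1 Mb and 1.05 at 1 to 1.1 Mb, short-short pairs 1.05 and 1.15, and mixed pairs 0.796 and 0.867. At the far limit, the values at 4.9 to 5 Mb and at 5 to 5.1 Mb were 1.04 and 1.05 for long-long, 1.42 and 1.28 for short-short, and 0.894 and 0.906 for mixed pairs.

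Contact was also compared over the whole range of sizes, in 7 size groups that hold all TADs but 1 short one of an odd length. Pairs of TADs of up to 30 kb had 1.45 ± 0.0843 (SD over 5 arms), pairs of 40 to 50 kb 1.38 ± 0.112 and pairs of 60 to 70 kb 1.08 ± 0.0611. Medium TADs did not favour their own size. Those of 60 to 70 kb had 1.19 ± 0.0482 with TADs of up to 30 kb. Those of 80 to 90 kb had 1.10 ± 0.0563 with TADs of up to 30 kb and 1.07 ± 0.0842 with each other. Among long TADs, contact was highest between the largest, with 1.03 ± 0.0800 for pairs of 100 to 140 kb, 1.10 ± 0.0512 for pairs of 150 to 240 kb and 1.24 ± 0.139 for pairs of at least 250 kb. The 132 pairs of at least 250 kb ranged over the arms between 1.10 and 1.40. Long-long contact was not uniform. TADs of 100 to 140 kb had 0.959 ± 0.0126 with TADs of at least 250 kb, close to their 0.967 ± 0.0622 with TADs of up to 30 kb. With TADs of 80 to 90 kb they had 1.06 ± 0.0679. The lowest values were those of the largest TADs with the smallest, 0.759 ± 0.0471 with TADs of up to 30 kb, 0.758 ± 0.0273 with 40 to 50 kb and 0.775 ± 0.0331 with 60 to 70 kb.

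**Figure D2:**
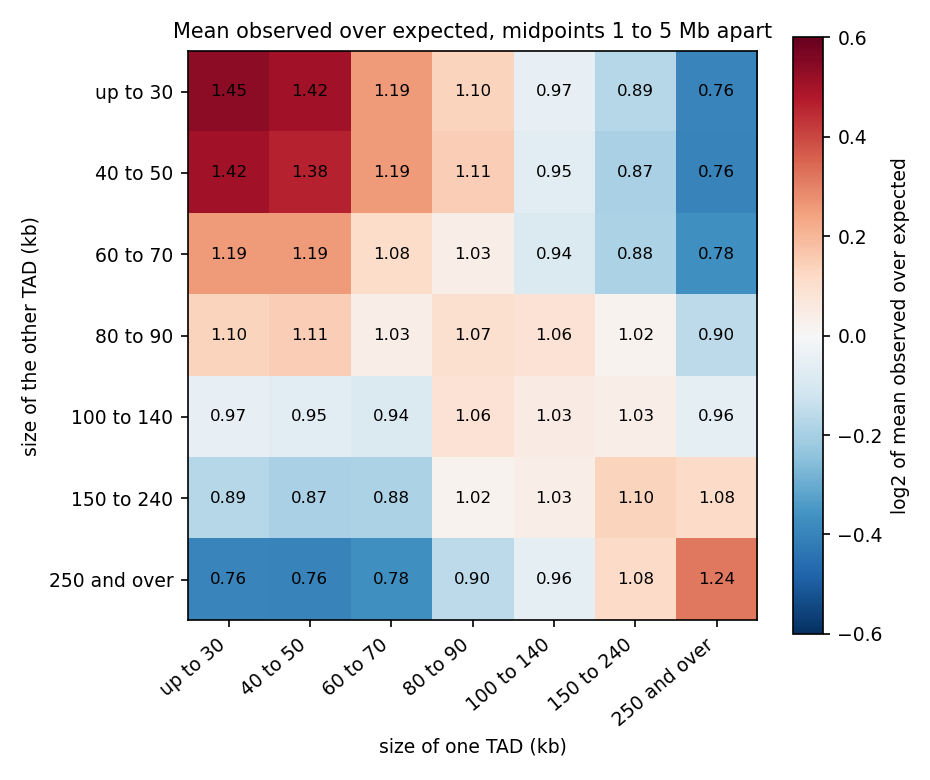
Mean observed over expected contact (printed in each cell, colour on a log2 scale) of TAD pairs 1 to 5 Mb apart, by the size of one TAD (horizontal, kb) and of the other (vertical, kb). Red cells stand where both TADs are small, up to 1.45, or both are at least 250 kb, 1.24, and blue cells where a TAD of at least 250 kb meets one of up to 70 kb, 0.76 to 0.78.

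The classes behaved differently with distance. Long-long contact had its highest value among neighbours, with 1.31 at 0.2 to 0.5 Mb, and was 1.21 at 0.5 to 1 Mb, 1.10 at 1 to 2 Mb, 1.05 at 2 to 3 Mb, 1.04 at 3 to 4 Mb and 1.05 at 4 to 5 Mb. Short-short contact was below the arm mean at 0.2 to 0.5 Mb, with 0.866, and was 1.09 at 0.5 to 1 Mb, 1.35 at 1 to 2 Mb, 1.40 at 2 to 3 Mb, 1.41 at 3 to 4 Mb and 1.46 at 4 to 5 Mb. At 0.2 to 0.5 Mb the arm mean also holds bin pairs inside single large TADs, and how far this bears on the values between TADs was not tested. Mixed contact was lowest at 0.2 to 0.5 Mb, with 0.694, and was 0.755, 0.844, 0.859, 0.882 and 0.893 in the same steps up to 4 to 5 Mb. Mixed pairs were below both like classes in each of these steps.

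Beyond 5 Mb long-long contact came down to that of mixed pairs, while short-short contact stayed above it. Short-short pairs had 1.44 at 5 to 7.5 Mb, 1.43 at 7.5 to 10 Mb, 1.39 at 10 to 15 Mb and 1.37 at 15 to 20 Mb. Long-long pairs had 1.04, 1.01, 0.984 and 0.969 over these distances, and mixed pairs 0.896, 0.931, 0.952 and 0.979. At 15 to 20 Mb long-long contact was 0.990 times mixed contact, with arms between 0.919 and 1.04, while short-short contact was 1.40 times mixed contact, with arms between 1.25 and 1.58. At 4 to 5 Mb these ratios were 1.18 and 1.63, so both were lower at the greater distance. The like over unlike ratio was 1.53 at 0.2 to 0.5 Mb, 1.44 at 1 to 2 Mb, 1.39 at 4 to 5 Mb and 1.18 at 15 to 20 Mb.

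**Figure D3:**
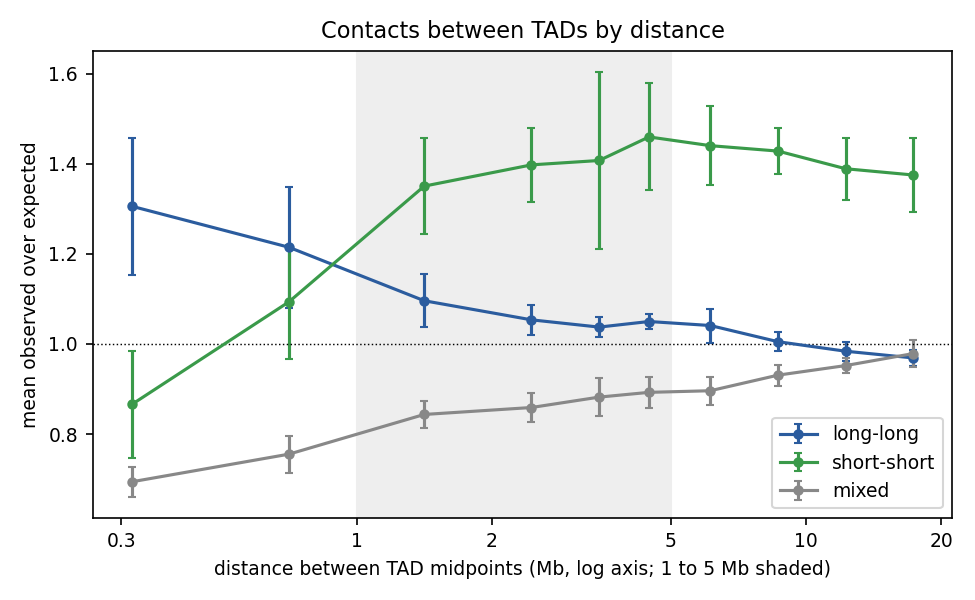
Mean observed over expected contact of long-long, short-short and mixed TAD pairs (vertical axis) against the distance between TAD midpoints (Mb, log axis), with points at the middle of each step, bars for the SD over 5 arms, and 1 to 5 Mb shaded. Short-short contact stays between 1.35 and 1.46 from 1 to 20 Mb, while long-long contact, at 1.31 among neighbours, meets mixed contact at 15 to 20 Mb.

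Contacts between different arms were not used by the rule and have no distance scale, so they were compared with the mean of their arm pair. Of the 10 arm pairs, 2L with 2R and 3L with 3R join arms of one chromosome. Short-short contact between arms was 1.29 ± 0.0787 (SD over 10 arm pairs), from 1.15 to 1.39, and above 1 in 10 of 10. Long-long contact was 0.939 ± 0.0296, from 0.890 to 0.978, and above 1 in 0 of 10. Mixed contact was 0.978 ± 0.0245, from 0.943 to 1.01. Long TADs of different arms therefore did not contact each other more than they contacted short TADs, with a long-long over mixed ratio of 0.960, above 1 only for 2L with 2R (1.03) and 2R with X (1.03). The short-short over mixed ratio was 1.31 and the like over unlike ratio 1.12, from 1.08 to 1.17. These contacts are sparse, with 0.0580 di-tags per bin pair in 1215711 long-long, 0.0935 in 149003 short-short and 0.0657 in 762631 mixed di-tags.

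The partners of each TAD were then examined one TAD at a time. Each TAD's mean contact with all long TADs at 1 to 5 Mb was divided by its mean contact with all short TADs at that distance. Of the 411 long TADs, 297 or 72.3% had more contact with long TADs, with a median log2 ratio of 0.23 (quartiles -0.02 and 0.46). Of the 544 short TADs, 507 or 93.2% had more contact with short TADs, with a median log2 ratio of -0.72 (quartiles -0.92 and -0.45). The majority held on each arm, from 67.0% on 3R to 76.3% on X for long TADs and from 89.8% on X to 97.0% on 3L for short TADs. The 350 medium TADs, which the rule left out, sided with the short ones, since 285 or 81.4% had more contact with short TADs, with a median log2 ratio of -0.36.

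The change of side lay near 100 to 120 kb. At 80 kb 30.6% of 85 TADs had more contact with long TADs and at 90 kb 39.6% of 48. At 100 kb this was 52.4% of 42 TADs, with a median log2 ratio of 0.01, and at 120 kb 42.5% of 40. At 130 kb it was 70% of 30, and above 200 kb 95% of 100, with a median log2 ratio of 0.48. Size classed the smallest TADs less well. At 30, 40 and 50 kb, 3.40%, 2.00% and 4.55% of TADs had more contact with long TADs, but at 20 kb it was 22 of 91 or 24.2%.

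These 22 TADs of 20 kb lay above the other 69 in the plot of partners by TAD size, with log2 ratios of 0.08 to 1.32 against -1.79 to -0.13. Their median contact was 0.910 with long TADs and 0.613 with short TADs, against 0.830 and 1.45 in the other 69. They were found on all 5 arms, and 19 of them or 86.4% had a long TAD as neighbour, against 41 of 69 or 59.4%. Their counts were low, with a median of 415 di-tags with all long TADs and 73.5 with all short TADs, against 480 and 243 in the other 69. They were picked by their log2 ratio, so the comparison, also of the counts with short TADs, is a description.

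**Figure D4:**
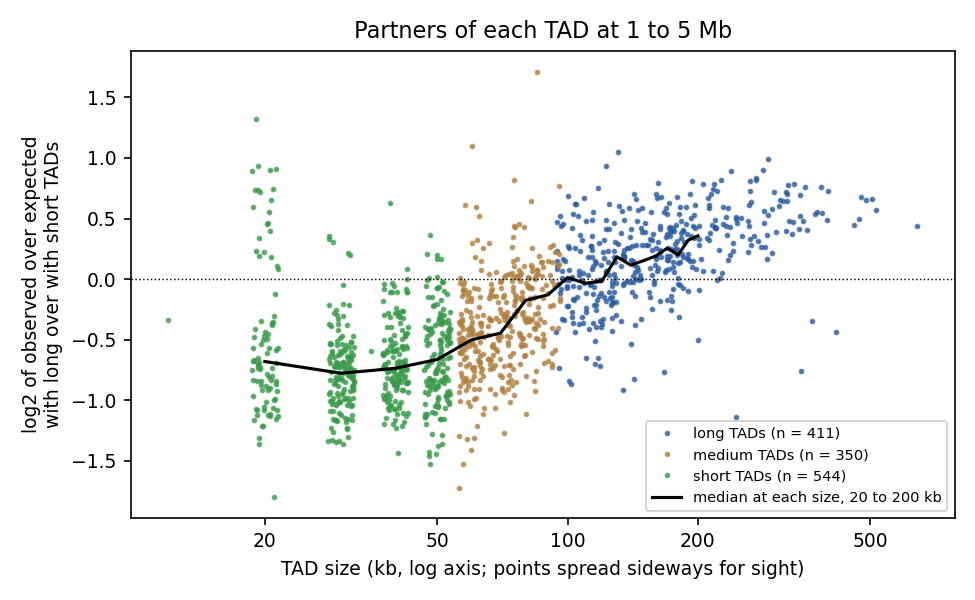
Log2 of each TAD's mean contact with long TADs over that with short TADs, at 1 to 5 Mb (vertical axis), against TAD size (kb, log axis), 1 point per TAD coloured by size class, with the median at each size as a black line. The line is at -0.68 at 20 kb and at -0.78 at 30 kb, crosses 0 near 100 kb and reaches 0.36 at 200 kb, and 22 of the 91 TADs of 20 kb lie above 0.

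The largest TAD of each arm had more contact with long than with short TADs. The TAD of 620 kb at 2L 17500001 to 18120000 had 1.06 with long TADs over 21759 di-tags and 0.784 with short TADs over 2865. The TAD of 470 kb at 2R 15650001 to 16120000 had 0.959 and 0.702, and the TAD of 500 kb at 3L 18110001 to 18610000 had 1.00 and 0.674. The TAD of 380 kb at 3R 12980001 to 13360000 had 1.11 and 0.759, and the TAD of 490 kb at X 20400001 to 20890000 had 1.04 and 0.657. All 5 were thus near the arm mean with long TADs and well below it with short TADs.

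Some long TADs went the other way. Chosen after their values were seen, the 3 long TADs with the lowest ratios among those with at least 1000 di-tags with both classes together were the TAD of 230 kb at 2R 1030001 to 1260000 (0.906 with long and 1.99 with short TADs), the TAD of 140 kb at 2L 16540001 to 16680000 (0.985 and 1.86) and the TAD of 100 kb at X 6640001 to 6740000 (0.692 and 1.26). In the first 2 the contact with long TADs was close to the arm mean and the contact with short TADs was high. The 3 short TADs farthest the other way, chosen in the same manner, were the TADs of 30 kb at 3L 11030001 to 11060000 (2.42 with long and 1.92 with short TADs), at 3R 25300001 to 25330000 (2.87 and 2.32) and at 3R 23720001 to 23750000 (1.05 and 0.907). The first 2 belong to pairs with unusually high contact described below.

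The long-range partners of short TADs differed little with the size of their neighbours. Short TADs between 2 long TADs (84 TADs) had 0.852 ± 0.0175 with long and 1.41 ± 0.137 with short TADs (SD over 5 arms). Short TADs between 2 short TADs (78) had 0.863 ± 0.0380 and 1.39 ± 0.170. These values differ by less than the SD over arms. Long TADs between 2 short TADs (105) had 1.11 ± 0.0716 with long and 0.879 ± 0.0255 with short TADs, and the 24 long TADs between 2 long TADs had 0.991 ± 0.231 and 0.810 ± 0.104. For these 24 TADs the spread over arms exceeds the difference between both sets.

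Inside long TADs the preference grew towards the centre. The outermost 10 kb of the 411 long TADs had 0.911 ± 0.0106 with other long TADs and 1.02 ± 0.0556 with short TADs. At 40 to 50 kb from the nearer edge these values were 1.07 ± 0.00798 and 0.877 ± 0.0311, and more than 100 kb from the edge 1.15 ± 0.0657 and 0.755 ± 0.0223. Taken over all 411 TADs, the outermost bins thus had no preference for long TADs. Still, they did not behave as short TADs, whose contact with short TADs was 1.40. Deep positions exist only in large TADs, so the 65 TADs of at least 250 kb were followed alone. In these, contact with long TADs was 0.912 ± 0.0286 in the outermost 10 kb and 1.14 ± 0.0668 more than 100 kb inside. Contact with short TADs was 0.866 ± 0.0432 and 0.746 ± 0.0183. In TADs of at least 250 kb even the outermost bins thus had slightly more contact with long than with short TADs. Median bin totals were slightly lower inside, with 5038 di-tags in the outermost bins of all long TADs and 4551 in the deepest.

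**Figure D5:**
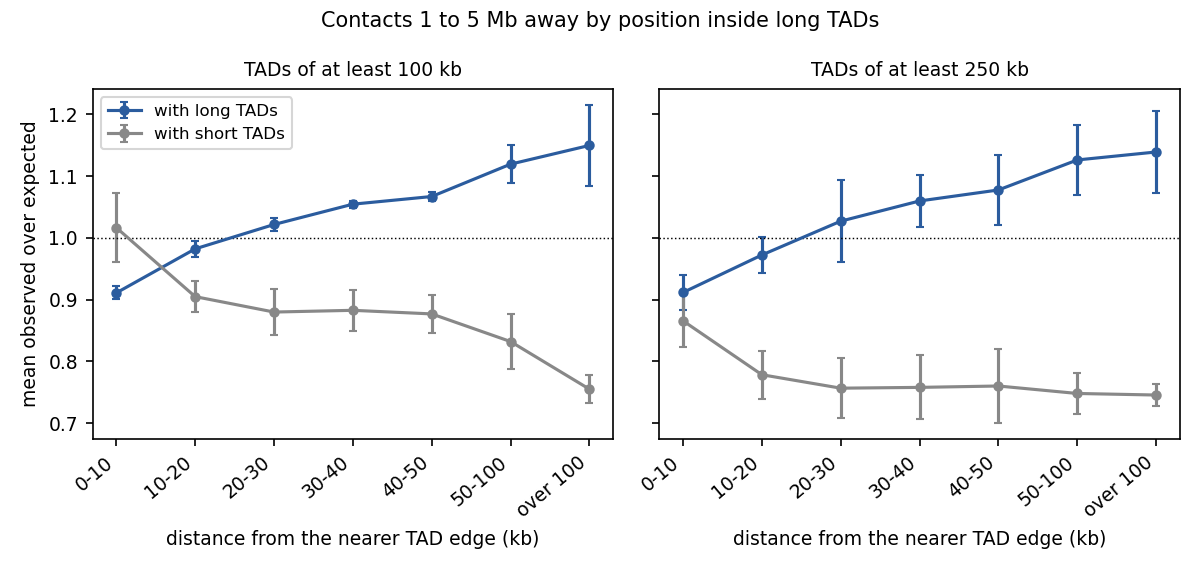
Mean observed over expected contact at 1 to 5 Mb (vertical axis) of bins inside long TADs, by their distance from the nearer TAD edge (kb), with long and with short TADs, for TADs of at least 100 kb (left) and at least 250 kb (right), bars SD over 5 arms. Contact with long TADs goes up from 0.911 at the edge to 1.15 in the interior, and contact with short TADs is 1.02 at the edge and 0.755 in the interior.

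The strongest pairs of each class were named by a rule, the 3 highest and the lowest among pairs with at least 10 expected di-tags, and lay far above the class means. Among 4978 long-long pairs the highest was on 2R, between 6920001 to 7020000 (100 kb) and 10510001 to 10640000 (130 kb), 3.61 Mb apart. It held 1608 di-tags against 81.3 expected, with an observed over expected value of 20.6 on the normalised map. The contact was spread over the pair, since its highest bin pair held 43 di-tags. The TAD that adjoins the first of these on its right, 7020001 to 7110000, had 7.50 with the same partner.

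The next 2 long-long pairs share a TAD on X, 13020001 to 13160000 (140 kb). With 10370001 to 10490000 (120 kb) it held 2389 di-tags against 113 expected (16.7), and with 10490001 to 10660000 (170 kb) 3271 against 172 (16.4). One bin pair here, 10410001 to 10420000 with 13030001 to 13040000, held 277 di-tags against 0.836 expected, the most of any long-long bin pair, while the 24 bin pairs around it held 433 together. The same TAD also gave the lowest long-long pair, with 14140001 to 14500000 (360 kb), which held 106 di-tags against 634 expected (0.228). With TADs less than 1 Mb away, it had 0.423 to its left and 0.234 to its right, and at 1 to 5 Mb it had 2.07 to the left and 0.420 to the right. With the TAD directly to its left it had 0.924 and with the one directly to its right 0.452. Its contact within 1 Mb was thus below the arm mean on both sides, though not with the TAD directly to its left, which was near the mean. Its median bin total was 0.646 of that of the arm, and whether Kc167 cells carry this segment at its reference position was not tested.

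A stretch of 3L held several of the named pairs. The highest short-short pair joined 7320001 to 7370000 with 11060001 to 11110000 (50 kb each), with 188 di-tags against 12.1 expected (11.2). The highest mixed pair joined 7500001 to 7670000 (170 kb) with 11030001 to 11060000 (30 kb), with 945 against 27.1 (26.5), and the third highest joined 7370001 to 7500000 (130 kb) with the same short TAD, with 351 against 19.7 (13.9). All 9 combinations of the 3 TADs from 7320001 to 7670000 with the 3 TADs from 11030001 to 11190000 were between 5.36 and 26.5, whatever their size class. Median bin totals of the 5 named TADs of this stretch were 0.964 to 1.13 of that of the arm. The second highest mixed pair lay on 3R, between 21970001 to 22090000 (120 kb) and 25300001 to 25330000 (30 kb), with 334 di-tags against 23.9 expected (20.2). Its short TAD adjoins a TAD of 90 kb at 25210001 to 25300000, which is in no class. With the same long TAD, this TAD of 90 kb held 1686 di-tags against 74.4 expected (39.1 on the normalised map). These blocks crossed size classes, in contrast to the averages of the classes.

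The other named short pairs show how depth and normalisation bear on single values. The second highest short-short pair, on 2L between 1150001 to 1190000 (40 kb) and 2190001 to 2220000 (30 kb), held 868 di-tags against 23.0 expected, 37.7 times on the raw counts and 9.07 times on the normalised map, and its TADs had bin totals of 1.68 and 1.98 times the arm median. It holds the short-short bin pair with the most di-tags, 150. The third, on 3L between 20300001 to 20340000 (40 kb) and 23680001 to 23730000 (50 kb), held 7 di-tags against 10.9 expected, 0.644 times on the raw counts (95% Poisson interval 0.259 to 1.33), but had 8.16 on the normalised map. Its TADs had bin totals of 0.462 and 0.257 of the arm median, so raw and normalised values of this pair disagree. The lowest short-short pair, on X between 12980001 to 13020000 and 14050001 to 14070000, held 0 di-tags against 11.9 expected, and the lowest mixed pair, on X between 19800001 to 20050000 and 21820001 to 21840000, held 0 against 38.0. A count of 0 allows up to 3.69 di-tags, and the expected di-tags are not corrected for bin totals. The TADs of this short-short pair had bin totals of 0.255 and 0.530 of the arm median, and the TAD at 21820001 had only 0.0440. The mixed bin pair with the most di-tags, 71 against 0.590 expected, lay on 2L between 17980001 to 17990000, in the TAD of 620 kb described above, and 21570001 to 21580000, in a short TAD 3.59 Mb away.

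The averages did not rest on these pairs. When each TAD of a named pair was left out, an alternative added after the values were seen, long-long pairs had 1.05, short-short pairs 1.39 and mixed pairs 0.859, and the like over unlike ratio was 1.41.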

How the data were processed

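Hi-C of Kc167 cells was deposited as 1 map that combines both replicates. The authors aligned the reads to release 5 (dm3) of the genome with HiCUP (the submitters' notes give Bowtie2 2.2.6), binned them at 10 kb and deposited raw counts of di-tags per bin pair. The deposited normalised interaction signal came from GOTHiC, and the deposited TAD coordinates came from HiCseg run on that normalised map, after which the authors dropped the weakest borders.

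Here, observed over expected divides the normalised signal by the average for that distance on the same arm. Pairs without di-tags counted as 0, and 84 bins without any di-tag within their arm were left out. Class means are over bin pairs. Poisson intervals (95%) cover counting error only. The circular shifts (1000, fixed seed) moved the TADs of each arm by at least 1 Mb. The computation was tested on simulated maps. Tools were Python 3.11.15 with pandas 2.3.3, numpy 2.4.6 and scipy 1.17.1, and matplotlib 3.10.9 for the plots.

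Regions named are, per class, the 3 highest and the 1 lowest TAD pair with at least 10 expected di-tags and the bin pair with the most di-tags, and the largest TAD of each arm. Anything else named was chosen after its values were seen. The members, lists and alternatives were chosen with earlier results of these data known. No gene was tested, and gene annotation and genome sequence of release 5 were not used here. Alternatives were the raw and iteratively balanced counts, other size and distance limits, other weights, and leaving out shallow bins, arm ends, single arms or the highest bin pairs.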

Additional observations from a re-analysis of the deposited data

How the results depend on the processing

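The 6 values followed (the means of the 3 classes, long-long and short-short over mixed, and the like over unlike ratio) were recomputed under 19 alternatives. Of these 114 values, 93 lay within 1 SD over the 5 arms of the reported value, 21 lay farther away and 0 changed direction. Leaving out a single arm can hardly move a value by the SD over the same arms. Those alternatives were thus almost bound to be among the 93 and say little about stability. The long-long mean on raw counts lay so close to 1 that it has no clear direction. On raw counts long-long pairs had a mean of 1.0008 and short-short pairs 1.5335, with ratios to mixed of 1.1479 and 1.7589, and after iterative correction these were 1.0082, 1.5531, 1.1375 and 1.7523. With limits of 150 and 30 kb, long-long pairs had 1.1181, mixed pairs 0.83584, long-long over mixed 1.3377 and like over unlike 1.5233. With limits of 80 and 60 kb, mixed pairs had 0.89836, short-short over mixed 1.4544 and like over unlike 1.3006. At 1 to 2 Mb, long-long pairs had 1.0963 and long-long over mixed 1.3003. With each TAD pair weighted equally, long-long pairs had 1.0339, mixed pairs 0.89762 and long-long over mixed 1.1518. Without the highest 0.1% of bin pairs, long-long pairs had 1.0315. The like over unlike ratio stayed between 1.3006 and 1.5233. The cause of these shifts was not tested.

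No paired analysis was possible because both replicates were pooled before deposition. For the same reason every value comes from 1 pooled map and has no replicate. The SD over arms describes arms of 1 map, so the error between cultures is unknown. At this depth a short-short pair holds a median of 11 di-tags, so that only sums over many such pairs are precise.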
